A study of Homo sapiens with 16 samples.

Results

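The genes described here are 10 feedback and target genes of Wnt signalling, chosen by gene symbol: RNF43, ZNRF3, NOTUM, DKK1, AXIN2, NKD1, NKD2, LEF1, TCF7 and SP5. They are 10 of 59081 genes in a table of RNA-seq read counts from U2OS, an established human osteosarcoma cell line. Confluent cells were held without serum for 48 h to promote quiescence. For the last 24 h they received 10 µM harmine hydrochloride or its vehicle water, or 25 µM INDY or its vehicle DMSO. Harmine and INDY are small-molecule inhibitors of the DYRK kinases that also act on the related CLK kinases. There were 4 poly(A)-selected libraries for each of harmine, water, INDY and DMSO, 16 in all, from 1 cell line. The sources used here do not say whether the replicates were separate cultures, so the spread between them may be technical.

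Wnt proteins bind a Frizzled receptor and its coreceptor LRP5 or LRP6, which stops the destruction complex from degrading β-catenin. Stabilised β-catenin then enters the nucleus and activates genes through LEF1 and the TCF proteins. Several of those target genes encode inhibitors of the pathway, so the pathway limits itself at the cell surface, in the cytoplasm and in the nucleus. In bone, Wnt signalling promotes the formation of osteoblasts, the lineage that osteosarcoma cells resemble.

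Of the 10 genes, 7 had enough reads to be tested. DKK1 and TCF7 had at most 5 and 10 reads in any library, and SP5 had none. RNF43, ZNRF3, NOTUM, AXIN2, NKD1, NKD2 and LEF1 were measured in all 16 libraries, with at least 1.70 CPM in each (counts scaled to a common library total, with the trimmed mean of M values, TMM, as the scaling factor).

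Upstream sequences are shown for 3 of the genes: RNF43 and NKD2, which changed in opposite directions with both compounds, and SP5, which had no reads. RefSeq promoter windows (GRCh38.p14) were matched for 6 of the 10 genes, RNF43, DKK1, NKD2, LEF1, TCF7 and SP5, at 8 start sites. Each sequence is the genomic stretch upstream of the first listed start, 5′ to 3′ on the strand of the gene, and bases under an annotated exon were left out. The NKD2 stretch is chr5:1008552-1008801 on the plus strand, the SP5 stretch is chr2:170715087-170715336 on the plus strand, and the RNF43 stretch is chr17:58417596-58417784 on the minus strand. Capitals mark the TCF/LEF motif, searched as CTTTGAT and CTTTGAA on both strands, with overlapping matches counted.
RNF43: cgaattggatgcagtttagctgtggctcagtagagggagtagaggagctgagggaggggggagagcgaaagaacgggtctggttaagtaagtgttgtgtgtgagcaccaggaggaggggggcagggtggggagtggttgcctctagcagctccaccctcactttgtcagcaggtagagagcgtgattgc
NKD2: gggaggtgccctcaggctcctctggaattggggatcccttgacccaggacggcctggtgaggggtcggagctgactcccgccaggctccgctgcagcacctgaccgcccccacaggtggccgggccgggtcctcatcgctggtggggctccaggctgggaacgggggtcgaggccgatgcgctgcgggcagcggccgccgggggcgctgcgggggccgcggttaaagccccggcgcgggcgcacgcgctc
SP5: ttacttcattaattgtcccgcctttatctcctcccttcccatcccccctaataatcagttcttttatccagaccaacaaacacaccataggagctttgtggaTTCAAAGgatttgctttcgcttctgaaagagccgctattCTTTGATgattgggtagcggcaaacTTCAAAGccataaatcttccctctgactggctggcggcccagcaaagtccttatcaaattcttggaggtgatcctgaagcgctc

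The SP5 window held 3 matches to the motif, which began 148, 109 and 84 bases upstream of the start. No match lay in the 250 bases upstream of RNF43, NKD2, LEF1 or TCF7 at any of their listed starts, and DKK1 had 1 match. In all, 2 of 8 windows of the members held the motif, against 2086 of 35116 RefSeq windows of the same length (5.94%). A match describes the letters in the window and is not evidence of binding.

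Totals ran between 44301910 and 65889667 estimated counts per library, and mitochondrially encoded mRNAs took 2.20 to 3.05% of them. In the osteoblast marker list COL1A1 made up most of the sum, and COL1A2, SP7, IBSP and BGLAP averaged at most 0.23 CPM in any group. The list summed to 191 to 194 CPM with harmine and 209 to 217 CPM with water. With INDY it summed to 134 to 146 CPM, and with DMSO to 191 to 200.3 CPM. Of its 8 genes 5 were tested, and ALPL and COL1A1 were lower with both compounds, while RUNX2 was higher with harmine (0.58 on the log2 scale) and lower with INDY (-0.53), and SPP1 lower with harmine (-0.82) and higher with INDY (0.65). Epithelial markers, mostly CLDN4, summed to 30.4 to 33.5 CPM with harmine against 60.4 to 79.0 CPM with water, and to 36.4 to 48.5 CPM with INDY against 51.1 to 61.9 CPM with DMSO. Endothelial markers summed to 9.68 CPM at most, and blood cell markers to 1.51 to 2.89 CPM with INDY against 0.394 to 0.495 CPM with DMSO. Among the blood cell markers CD14 and CD79A were higher with INDY (4.41 and 2.23 on the log2 scale) and PTPRC was lower (-2.93). CD14 and CD79A passed the filter on low counts only through the INDY libraries, where they were high. The part of these shifts in the results below was not tested. Differences between replicates exceeded counting noise in every group, and the widest pair was replicates 2 and 3 among the INDY libraries and replicates 3 and 4 among the water libraries. The libraries that lay apart were INDY replicates 1 and 3 and water replicates 1 and 4. The 7 tested genes were therefore also tested without each of these pairs. So were the total counts of calls, and each pathway gene below that was chosen by its change, for the compound it was chosen with. Marker genes and the other single values below were not. In bulk RNA, fewer cells expressing a gene and less RNA per cell cannot be told apart.

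With harmine, NKD2, NKD1 and ZNRF3 were higher than with water and RNF43 was lower, while NOTUM, AXIN2 and LEF1 were not called. With INDY, RNF43, NOTUM, NKD1 and LEF1 were lower than with DMSO and NKD2 was higher, while ZNRF3 and AXIN2 were not called. A call here is a Benjamini-Hochberg adjusted p under 0.01 in edgeR over the 20446 genes tested. The 4 calls of 7 with harmine stand beside 47.7% of all genes tested (24.9% higher and 22.8% lower). The 5 calls of 7 with INDY stand beside 66.6% (33.2% higher and 33.4% lower). Every library of one group lay above every library of the other for 4 of 7 genes with harmine and for 5 of 7 with INDY, beside 55.1% and 67.5% of all genes tested. These counts are near their backgrounds. The median log2 fold change of the 7 genes was 0.07 with harmine and -0.23 with INDY, beside 0.02 and -0.01 over all genes tested.

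**Figure D1:**
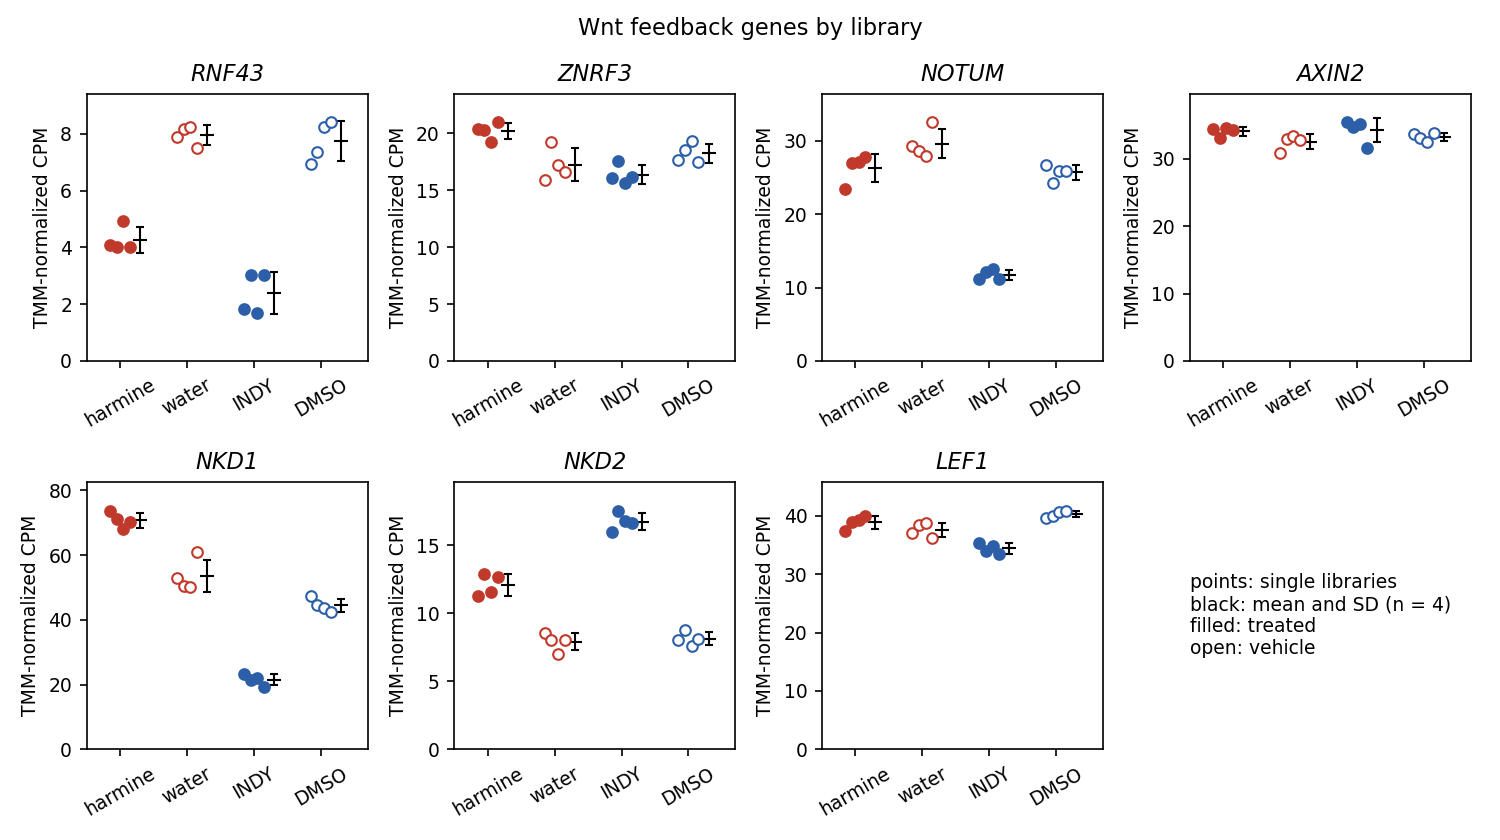
TMM-normalized CPM of the 7 tested genes in each of the 16 libraries (points) by group, with black marks for the mean and SD (n = 4) and a vertical axis that starts at 0 in each panel. RNF43 was below its vehicle in every harmine and INDY library and NKD2 above it, while NKD1 was above water with harmine and below DMSO with INDY.

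RNF43 encodes a membrane E3 ubiquitin ligase that removes Frizzled receptors from the cell surface and so limits the response to Wnt. It lies at chr17:58353676-58417595 on the minus strand of GRCh38. RNF43 had 4.10, 4.01, 4.92 and 4.02 CPM in the harmine libraries, against 7.89, 8.19, 8.25 and 7.50 CPM with water. It had 1.82, 3.02, 1.70 and 3.03 CPM in the INDY libraries, against 6.94, 7.38, 8.23 and 8.42 CPM with DMSO. Neither treated group overlapped its vehicle, and the INDY libraries formed a lower and a higher pair. RNF43 fell by 0.90 on the log2 scale with harmine (SE 0.133, adjusted p = 1.21e-05) and by 1.70 with INDY (SE 0.143, adjusted p = 3.06e-09). It was the one gene of the 7 that was lower with both compounds, a pattern of 12% of all genes tested. DMSO and water libraries overlapped, and their difference of -0.04 was not called (adjusted p = 0.871).

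RNF43 shares reads with an overlapping gene, which makes its own level uncertain. A readthrough gene, AC004687.2 (ENSG00000285897), spans RNF43 on the same strand, and 63.3% of the 100-base stretches of RNF43 transcripts also occur in its transcripts. It took 10.6 to 39.6% of the reads of both genes together with INDY, against 1.02 to 6.82% with DMSO. With harmine its share was 1.74 to 22.1%, against 2.98 to 8.87% with water. Summed over both genes, the INDY libraries had 2.55, 3.48, 2.82 and 3.38 CPM, against 7.45, 7.79, 8.31 and 8.68 CPM with DMSO. The summed levels were 4.21, 5.13, 5.01 and 4.86 CPM with harmine, against 8.32, 8.45, 8.83 and 8.24 CPM with water. All treated libraries stayed below their vehicles. The summed log2 fold change was -1.40 with INDY (adjusted p = 6.96e-11) and -0.81 with harmine (adjusted p = 1.59e-07), an alternative added after the data were seen. Without INDY replicates 1 and 3, the libraries with the lower RNF43 levels, the INDY change was -1.35 (adjusted p = 3.46e-09).

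**Figure D2:**
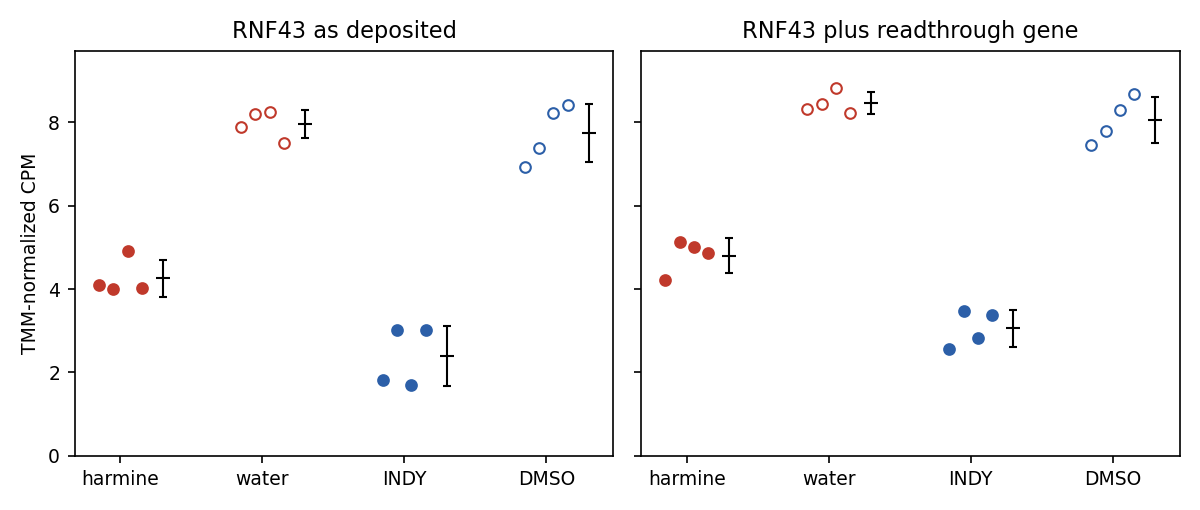
TMM-normalized CPM of RNF43 as deposited (left) and after the reads of the overlapping readthrough gene were added (right), one point per library, with black marks for the mean and SD (n = 4). Adding those reads brought the INDY libraries to between 2.55 and 3.48 CPM, which is still below every DMSO library.

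ZNRF3, the close homologue of RNF43 with the same action on Frizzled receptors, was called higher with harmine and was not called with INDY. The gene lies at chr22:28883572-29057488 on the plus strand. ZNRF3 had 20.3, 20.3, 19.2 and 21.0 CPM with harmine, against 15.9, 19.3, 17.2 and 16.6 CPM with water. The groups overlapped at water replicate 2, and the increase of 0.23 on the log2 scale was called (SE 0.0564, adjusted p = 0.00196). The call was lost without harmine replicate 4 (0.20, adjusted p = 0.0123), without water replicates 1 and 4 (0.15, adjusted p = 0.0555) and against DMSO in place of water (0.15, adjusted p = 0.0342). ZNRF3 had 16.03, 17.6, 15.6 and 16.1 CPM with INDY, against 17.6, 18.5, 19.3 and 17.5 CPM with DMSO. That difference of -0.16 was not called (SE 0.0571, adjusted p = 0.017). It passed the threshold without INDY replicate 2 (-0.19, adjusted p = 0.00713) or without water replicate 2 (-0.16, adjusted p = 0.00752). It also passed with upper-quartile factors (adjusted p = 0.00866), with library totals (adjusted p = 0.00661) and without water replicates 1 and 4 (adjusted p = 0.00862).

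NOTUM encodes a secreted enzyme that removes the lipid from Wnt proteins and so inactivates them. It lies at chr17:81952507-81961840 on the minus strand. NOTUM had 11.1, 12.1, 12.6 and 11.2 CPM with INDY, against 26.7, 24.2, 25.9 and 25.9 CPM with DMSO. The INDY libraries were all below the DMSO libraries, and NOTUM fell by 1.13 on the log2 scale (SE 0.0616, adjusted p = 7.49e-12). With harmine it had 23.4, 27.0, 27.1 and 27.7 CPM, against 29.3, 28.7, 28.0 and 32.5 CPM with water. All harmine libraries were below all water libraries, but the difference of -0.17 was not called (SE 0.0576, adjusted p = 0.0166). The call for harmine turned on the scaling and on single libraries: it was made without harmine replicate 4 (-0.21, adjusted p = 0.00935), without water replicate 3 (-0.21, adjusted p = 0.00724) and without INDY replicate 3 (-0.18, adjusted p = 0.00692), and also with library totals as the scaling (-0.22, adjusted p = 0.00296). DMSO libraries were themselves below all water libraries (-0.20, adjusted p = 0.0274, not called), and against DMSO the harmine difference had the opposite sign (0.03, adjusted p = 0.641).

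DKK1 encodes a secreted antagonist of LRP5 and LRP6, and lies at chr10:52314281-52318042 on the plus strand. Its libraries held 3, 1, 1 and 0 reads with harmine, 2, 2, 4 and 4 with water, 0, 1, 0 and 0 with INDY, and 5, 1, 0 and 0 with DMSO. A difference between groups was not detectable at this depth. Without the filter on low counts, the adjusted p of DKK1 was 0.491 with harmine and 0.198 with INDY.

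AXIN2, a scaffold protein of the destruction complex and a standard transcriptional readout of β-catenin activity, showed no called change with either compound. It lies at chr17:65528563-65561648 on the minus strand. AXIN2 had 34.4, 33.1, 34.5 and 34.3 CPM with harmine, against 30.8, 32.9, 33.4 and 32.7 CPM with water. It had 35.4, 34.7, 35.1 and 31.6 CPM with INDY, against 33.7, 33.1, 32.4 and 33.7 CPM with DMSO. Treated and vehicle libraries overlapped in both pairs. The log2 difference was 0.07 with harmine (95% interval -0.01 to 0.15, adjusted p = 0.137) and 0.04 with INDY (95% interval -0.04 to 0.12, adjusted p = 0.326). A readthrough gene, AC004805.1, shares 23.5% of the 100-base stretches of AXIN2 but took at most 2.22% of the reads of both. With its reads added the differences were 0.07 and 0.06.

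NKD1 and NKD2 encode the Naked cuticle homologues, which bind Dishevelled in the cytoplasm and dampen the signal. NKD1 lies at chr16:50548396-50649249 on the plus strand. NKD1 had 73.7, 71.0, 68.0 and 70.3 CPM with harmine, against 53.0, 50.4, 50.0 and 60.9 CPM with water. It had 23.4, 21.4, 22.1 and 19.4 CPM with INDY, against 47.3, 44.7, 43.8 and 42.5 CPM with DMSO. All harmine libraries were above all water libraries, and all INDY libraries were below all DMSO libraries. NKD1 rose by 0.40 on the log2 scale with harmine (SE 0.0577, adjusted p = 8.56e-06) and fell by 1.05 with INDY (SE 0.0618, adjusted p = 2.23e-11). It was the one gene of the 7 called higher with harmine and lower with INDY, as were 6.26% of all genes tested. NKD1 was also lower with DMSO than with water (-0.26, SE 0.0584, adjusted p = 0.00725), and this call was lost without water replicates 1 and 4 (-0.17, adjusted p = 0.155). It was also lost when any one of harmine replicates 2, 3 and 4, water replicates 1 and 4 or DMSO replicates 2, 3 and 4 was left out (adjusted p = 0.0103 to 0.0318).

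NKD2 was higher with both compounds. It lies at chr5:1008802-1038943 on the plus strand. The gene identifier in the table differs from the one in GENCODE 44, so NKD2 was matched to its position by symbol. NKD2 had 11.3, 12.9, 11.5 and 12.6 CPM with harmine, against 8.59, 8.07, 7.03 and 8.03 CPM with water. It had 15.99, 17.5, 16.8 and 16.6 CPM with INDY, against 8.04, 8.81, 7.60 and 8.14 CPM with DMSO. Neither treated group overlapped its vehicle. NKD2 rose 1.53-fold with harmine (log2 0.61, SE 0.0658, adjusted p = 2.28e-07) and 2.06-fold with INDY (log2 1.04, SE 0.0649, adjusted p = 4.8e-11), and 12.1% of all genes tested were called higher with both.

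LEF1 is the DNA-binding partner of β-catenin and is itself induced by it. It lies at chr4:108047545-108168956 on the minus strand. LEF1 had 35.4, 34.0, 34.8 and 33.4 CPM with INDY, against 39.6, 40.0, 40.6 and 40.8 CPM with DMSO. The groups did not overlap, and LEF1 fell by 0.23 on the log2 scale with INDY (SE 0.0332, adjusted p = 5.18e-06). With harmine it had 37.3, 38.9, 39.2 and 39.9 CPM, against 37.1, 38.4, 38.7 and 36.2 CPM with water. These groups overlapped, and the difference of 0.05 was not called (95% interval -0.02 to 0.12, adjusted p = 0.235). Its sign turned against DMSO in place of water (-0.05, adjusted p = 0.195). All DMSO libraries were above all water libraries for LEF1 (0.10, adjusted p = 0.0588, not called). The INDY fall was thus measured from the higher vehicle.

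TCF7 and SP5 were at or near the limit of detection. TCF7, another DNA-binding partner of β-catenin, lies at chr5:134114681-134151865 on the plus strand. It had 3, 1, 5 and 0 reads with harmine, 5, 6, 10 and 3 with water, 0, 0, 2 and 2 with INDY, and 7, 2, 5 and 2 with DMSO. Its summed reads were 9 with harmine, 24 with water, 4 with INDY and 16 with DMSO, and without the filter its adjusted p was 0.271 with harmine and 0.0728 with INDY. SP5, a zinc finger repressor encoded at chr2:170715337-170718078 on the plus strand, had 0 reads in all 16 libraries. At these depths 0 reads allows up to 3 counts, or 0.0447 to 0.0687 CPM by library, for counting error only.

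The members differed in abundance as well as in response. Per kilobase of the canonical GENCODE 44 transcript, the mean levels in water libraries were 13.3 CPM for NOTUM, 10.5 for LEF1 and 7.62 for AXIN2. NKD2 had 3.63 CPM per kilobase, ZNRF3 had 2.51 and RNF43 had 1.76. The order was the same in DMSO libraries, the vehicle of INDY, with 11.55 CPM per kilobase for NOTUM, 11.26 for LEF1, 7.80 for AXIN2 and 3.73 for NKD2. In INDY libraries the order changed: LEF1 had 9.61 CPM per kilobase, AXIN2 8.03, NKD2 7.67 and NOTUM 5.28, with 0.529 for RNF43. NKD1 is left out of this order, since its canonical transcript of 17039 bases makes the value depend on the length chosen.

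**Figure D3:**
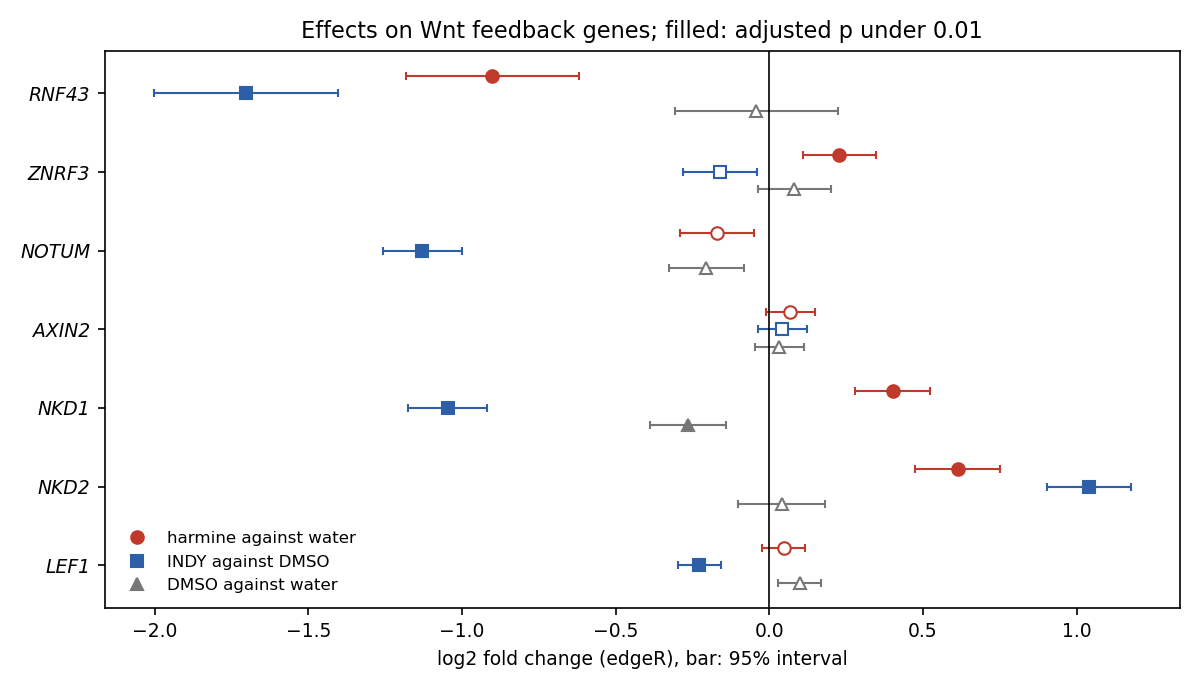
Log2 fold change of the 7 tested genes with harmine against water (circles), INDY against DMSO (squares) and DMSO against water (triangles), with 95% intervals from the edgeR fit and filled symbols for adjusted p under 0.01. The intervals of AXIN2 include 0 for both compounds, and those of NKD1 for harmine and INDY lie on opposite sides of 0.

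The effects of the compounds differed for 6 of the 7 genes, where 54.5% of all genes tested differed (28.1% with a higher and 26.4% with a lower harmine effect). These differences compare 10 µM harmine with 25 µM INDY, each against its own vehicle, and the doses are not matched. The harmine effect minus the INDY effect was largest for NKD1 (1.45 on the log2 scale, SE 0.0845, adjusted p = 6.59e-11). It was 0.96 for NOTUM (SE 0.0843, adjusted p = 1.49e-08) and 0.80 for RNF43 (SE 0.196, adjusted p = 0.0015). For RNF43 it was 0.58 with the readthrough reads added (adjusted p = 0.000447) and 0.43 without INDY replicates 1 and 3 (adjusted p = 0.00933). ZNRF3 and LEF1 had smaller differences, 0.39 (adjusted p = 0.00035) and 0.27 (adjusted p = 4.88e-05). NKD2 was the gene with the negative difference, -0.43 (SE 0.0923, adjusted p = 0.000512), as its increase was larger with INDY. AXIN2 had a difference of 0.03 (95% interval -0.09 to 0.14, adjusted p = 0.693). Between the vehicles, 4.29% of all genes tested were called (1.58% higher and 2.71% lower with DMSO), and NKD1 was the only member among them. DMSO and water libraries did not overlap for 3 members, NOTUM, NKD1 and LEF1, beside 19.9% of all genes tested.

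The rest of the pathway was read from lists of 123 genes, of which 101 were tested. With harmine 28 were higher and 24 lower, beside 24.9% and 22.8% of all genes tested, and the median log2 fold change was 0.04. With INDY 27 were higher and 54 lower, beside 33.2% and 33.4% of all genes tested, and the median was -0.23. The harmine counts are near their background, and the counts of each list below stand beside the same shares. Genes named below had the largest called changes of their list without overlap between groups, and those chosen after their values were seen are marked as such. For a gene named for 1 compound, the value with the other is given where it was called.

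Of 19 Wnt ligands 12 were tested. With harmine 6 were lower and 1, WNT7A, was higher, and with INDY 8 were lower and 3, WNT7A, WNT9A and WNT10B, were higher (WNT7A, WNT9A and WNT10B named after their values were seen). The WNT10B groups overlapped, at 3.37 to 5.68 CPM with INDY and 3.13 to 4.18 CPM with DMSO. WNT2B averaged 4.66 ± 0.219 CPM with harmine and 10.3 ± 1.33 CPM with water (SD, n = 4 each), a log2 fold change of -1.14. It averaged 1.22 ± 0.106 CPM with INDY and 9.46 ± 0.350 CPM with DMSO (SD, n = 4 each), a change of -2.95. WNT7B fell by 1.29 with harmine and by 1.17 with INDY on the log2 scale. Both genes of Wnt secretion were lower with INDY, the carrier WLS by 0.36 and the acyltransferase PORCN by 0.64, and WLS was lower with harmine by 0.15.

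All 16 receptor genes were tested. With harmine 5 were higher and 3 lower, beside 47.7% of all genes tested called in either direction. With INDY 11 were lower and 5 were not called, beside 33.4% of all genes tested called lower. ROR1, a receptor tyrosine kinase that binds WNT5A, averaged 107 ± 0.987 CPM with harmine and 52.2 ± 4.08 CPM with water (SD, n = 4 each). It averaged 18.3 ± 2.68 CPM with INDY and 44.8 ± 0.812 CPM with DMSO (SD, n = 4 each). ROR1 thus rose by 1.04 with harmine and fell by 1.29 with INDY on the log2 scale. The coreceptor LRP5 averaged 13.7 ± 1.53 CPM with INDY and 46.9 ± 0.978 CPM with DMSO (SD, n = 4 each), and fell by 1.77, while with harmine it fell by 0.29. FZD4 rose by 0.61 with harmine and fell by 0.42 with INDY.

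R-spondins bind LGR receptors and remove RNF43 and ZNRF3 from the membrane, so these genes bear on the same step as the surface members. Of 7 listed, 5 were tested. With harmine LGR5 rose by 1.40 while LGR6 fell by 0.54 and RSPO4 by 0.24. For LGR6 the harmine call was lost against DMSO in place of water (-0.15, adjusted p = 0.348) and against both vehicles together (-0.35, adjusted p = 0.0133). With INDY LGR6 fell by 2.79, RSPO4 by 0.94 and LGR4 by 0.65, and the remaining 2 were not called. LGR4 with INDY and RSPO4 with harmine were named after their values were seen. LGR5 is at a low level, 1.67 ± 0.211 CPM with harmine and 0.637 ± 0.159 CPM with water (SD, n = 4 each). Its DMSO libraries were all below its water libraries (-0.98, adjusted p = 0.0183, not called). Against DMSO its INDY difference was -0.80 (adjusted p = 0.027, not called).

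Of 16 other extracellular inhibitors 10 were tested, and harmine raised 3 and lowered 3 of them while INDY raised 2 and lowered 6. FRZB, a secreted Frizzled-related antagonist, averaged 2.34 ± 0.657 CPM with INDY and 0.149 ± 0.0497 CPM with DMSO (SD, n = 4 each), and rose by 3.97 on the log2 scale. SOST, the osteocyte gene for sclerostin, had 59 reads with INDY and 3 with DMSO, a ratio of 20.1 (exact 95% interval 6.55 to 100 for counting error only, adjusted p = 5.45e-06). Only the INDY libraries brought SOST past the filter on low counts: each had at least 0.225 CPM, against at most 0.080 CPM in the other groups. Its ratio and adjusted p are therefore conditional on the group where it was high and are not separate support for the rise. KREMEN2, a coreceptor of DKK proteins, fell by 1.35 with harmine and by 1.15 with INDY (the INDY value was named after it was seen). DKK2 fell by 0.72 with harmine against water, but the difference was 0.10 against DMSO (adjusted p = 0.6) and -0.31 against both vehicles together (adjusted p = 0.0458), where it was not called. Between the vehicles, DKK2 was called lower with DMSO than with water (-0.82, adjusted p = 0.00151).

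All 16 genes of the destruction complex and Dishevelled were tested. With harmine 2 were higher and 3 lower, and with INDY 8 were higher and 3 lower. APC2 fell by 1.20 with harmine and by 2.26 with INDY. CSNK1E, a casein kinase of the pathway, rose by 0.92 with INDY, and 16.1% of its 100-base stretches are shared with a readthrough gene. GSK3B fell by 0.27 with harmine and rose by 0.17 with INDY.

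All 14 genes for β-catenin and its nuclear partners were tested. With harmine 3 were higher and 3 lower, and with INDY 7 were higher and 7 lower. CTNNB1, the gene for β-catenin, averaged 280 ± 2.02 CPM with harmine and 291 ± 3.80 CPM with water, a difference that was not called. It averaged 327 ± 6.66 CPM with INDY and 302 ± 5.72 CPM with DMSO (SD, n = 4 each), a rise of 0.12, and was named after its values were seen. CTNNBIP1, which blocks the binding of β-catenin to TCF proteins, rose by 0.91 with harmine and fell by 0.85 with INDY. The corepressor gene TLE1 rose by 0.55 with harmine and by 0.22 with INDY, and TLE2 fell by 0.17 with harmine and by 0.69 with INDY.

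Of 33 other reported Wnt targets 26 were tested. With harmine 13 were higher and 3 lower (median 0.24), and with INDY 7 were higher and 14 lower (median -0.26). SNAI2, a repressor of epithelial genes, averaged 16.6 ± 0.323 CPM with harmine and 3.96 ± 0.382 CPM with water (SD, n = 4 each), and rose by 2.07. With INDY SNAI2 fell by 1.07, with 1.76 ± 0.258 CPM against 3.71 ± 0.188 CPM with DMSO (SD, n = 4 each). MMP7, a matrix metalloproteinase, rose by 0.87 with harmine and fell by 2.97 with INDY. FGF18 rose by 2.36 with INDY at a low level, 0.316 ± 0.0497 CPM against 0.0608 ± 0.0191 CPM with DMSO (SD, n = 4 each). It passed the filter on low counts only through the INDY libraries, with at least 0.278 CPM in each against at most 0.177 CPM in the other groups. The size of this rise is therefore conditional on the group where FGF18 was high. MYC and CCND1, target genes in many tissues, were looked at after their values were seen: CCND1 rose by 0.17 with harmine and by 0.16 with INDY, and MYC was not called with either.

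**Figure D4:**
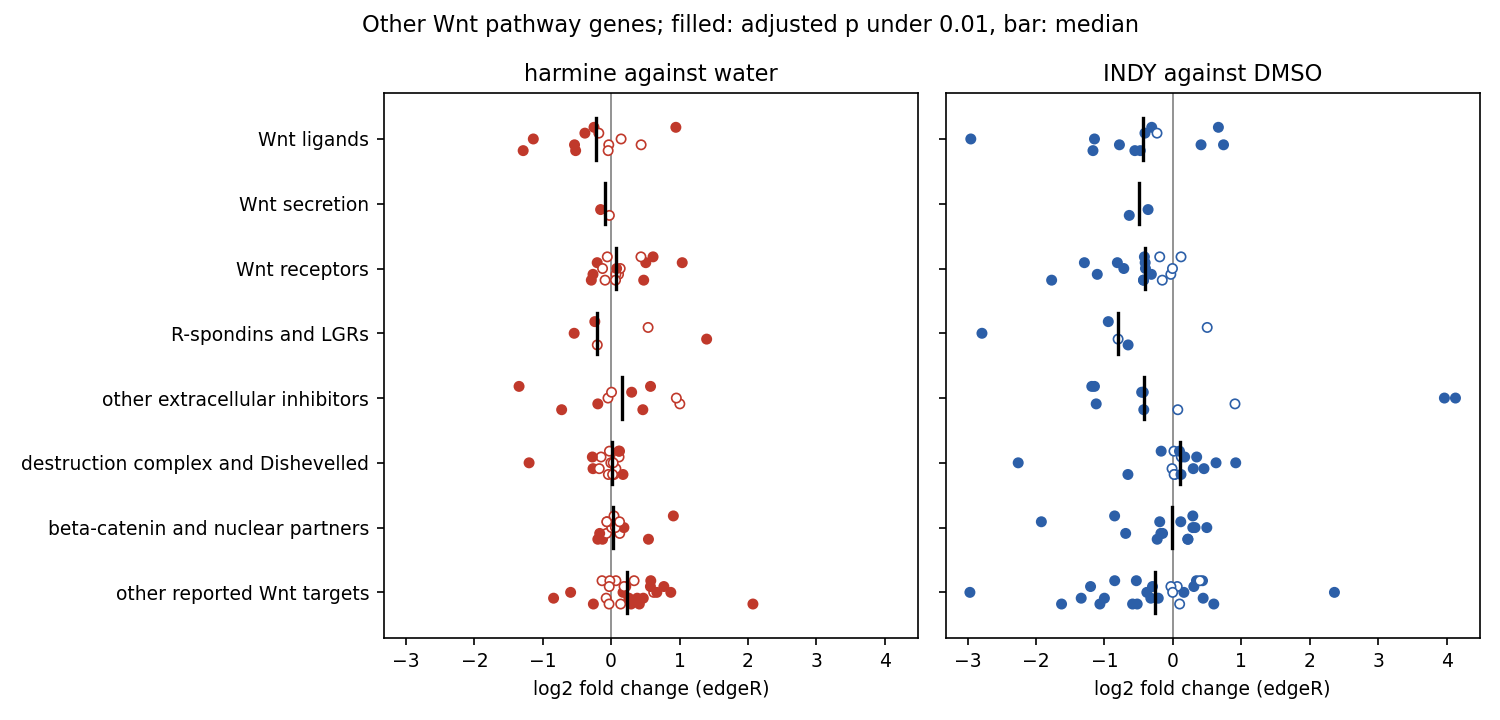
Log2 fold change of each tested gene (points) in the 8 pathway lists with harmine against water (left) and INDY against DMSO (right), with filled points for adjusted p under 0.01 and a black bar at the median of the list. For the receptors, 11 of 16 points with INDY are filled and lie below 0, beside 33.4% of all genes tested called lower.

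The genes whose pattern over the 16 libraries was most like that of 2 members were found by the root mean square difference of centred log2 CPM, among 14632 tested protein-coding genes. For AXIN2 they were GIT2 (0.0392) and TSHZ3 (0.0415). For LEF1 they were TCF3 (0.0347) and ZNF689 (0.0381). TCF3 has its own entry, apart from the gene TCF7L1 of the β-catenin partner list. Both TCF3 and ZNF689 fell with INDY, by 0.25 and 0.26 on the log2 scale. As they were chosen for closeness to LEF1 in these same libraries, which fell with INDY, this is a result of the choice and not a further finding.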

How the data were processed

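RNA was measured in 16 libraries of U2OS cells, grouped by the sample labels into harmine, water, INDY and DMSO. The authors deposited estimated counts, obtained from the reads with Salmon 1.1 and added up by gene with tximport (GENCODE 37, GRCh38 genome as decoy). The submitters' processing notes also name edgeR 3.28.1. The table was not realigned here. Values were rounded to integers.

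Genes passing filterByExpr were tested with edgeR 4.0.16 in R 4.3.3 (TMM, glmQLFit and glmQLFTest, 1 model of the 4 groups with 12 residual degrees of freedom, common biological coefficient of variation 0.0561), with Benjamini-Hochberg adjustment over the genes tested. No vehicle library is shared between the compounds. Log2 CPM used a prior count of 2. Depth was 44301910 to 65889667 counts per library, and intervals of single counts cover counting error only.

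The members and lists were chosen with earlier results of these data known. Named were all 10 members, the 2 genes of each pathway list and compound with the largest called change without overlap, and the 2 genes nearest in pattern to AXIN2 and LEF1. Positions are from GENCODE 44 on GRCh38, and upstream sequences are from RefSeq. Antisense genes overlap several members, and the setting for strand is not given in the sources used here. Alternatives were other scalings (upper-quartile factors, library totals), DESeq2 1.42.0, limma 3.58.1, other filters and thresholds, other vehicles, the replicate block, libraries left out and readthrough reads added. One marker gene is not reported here. The scripts were tested on simulated data.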

Additional observations from a re-analysis of the deposited data

Results flagged for a closer look

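RNF43 had 4.92 CPM in harmine replicate 3, apart from the other harmine libraries at 4.01 to 4.10 CPM. This was 1 of 28 groups looked at, and chance sets about 1 in 20 such groups apart. With the readthrough reads added, harmine replicate 3 had 5.01 CPM and lay between the other harmine libraries.

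The harmine effect differed from the INDY effect for 6 genes by the test of the difference itself: 1.45 for NKD1, 0.96 for NOTUM, 0.80 for RNF43, 0.39 for ZNRF3, 0.27 for LEF1 and -0.43 for NKD2, on the log2 scale. The doses and vehicles of the compounds were not the same.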

How the results depend on the processing

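The calls of RNF43, NKD1 and NKD2 with both compounds, of NOTUM and LEF1 with INDY, and of the 6 differences between the effects held under every alternative tried for them. Replicate numbers did not pair the harmine and water libraries, where same-numbered libraries correlated at -0.0527 to -0.00662. For INDY and DMSO, same-numbered libraries correlated at -0.0193 to 0.0868. There INDY replicates 1, 2 and 4 correlated best with the DMSO library of their own number (0.0868, 0.0449 and 0.0602). INDY replicate 3 correlated best with DMSO replicate 1 (0.108). With the replicate number as a block, RNF43 had a log2 fold change of -0.90 with harmine and -1.71 with INDY, and the block changed no call of a member. The count of members lower with harmine was 1, and 2 with upper-quartile factors, library totals, DESeq2, no filter, a threshold of 0.05 or without INDY replicates 1 and 3, and 1 to 2 when a library was left out. The added member was NOTUM. When a library was left out, the count of members lower with INDY, 4, ran from 4 to 5. The count higher with harmine, 3, ran from 2 to 3, and ZNRF3 was the member that moved in both. Between DMSO and water 1 member was lower, but 2 at 0.05, 0 with only those 8 libraries, 0 without water replicates 1 and 4, and 0 to 1 when a library was left out. Over all genes, 323 were higher and 554 lower with DMSO than with water. These counts were 743 and 860 with DESeq2, 1058 and 1326 at 0.05, 15 and 106 without water replicates 1 and 4, 744 and 925 without INDY replicates 1 and 3, and 88 to 576 and 237 to 781 when a library was left out. Signs turned for differences that were not called. When a library was left out, the log2 difference between vehicles ran from -0.0826 to 0.00899 for RNF43 and from -0.0132 to 0.0800 for NKD2, and the difference between the effects on AXIN2 ran from -0.0303 to 0.0423. With harmine against DMSO, NOTUM was at 0.0343 and LEF1 at -0.0517, and LEF1 was at -0.00237 against both vehicles. DKK2 with harmine turned against DMSO (0.10), though it was called against water. Between the vehicles DKK2 was itself lower with DMSO (-0.82, adjusted p = 0.00151). The cause of this vehicle difference was not tested. Depth limits DKK1, TCF7 and SP5.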
